A study of Homo sapiens with 6 samples.

Results

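The genes of the proteasome subunits and regulators were read in RNA sequencing libraries labelled HT1197, a line grown from a human bladder carcinoma, after panobinostat or vehicle. The members were the protein-coding genes whose symbol is PSMA, PSMB, PSMC, PSMD, PSME, PSMF or PSMG followed by a number, leaving out the interferon-inducible PSMB8 and PSMB9, together with POMP and NFE2L1. Of the 22718 genes in the table, 45 met this rule, and all 45 passed the filter on low counts. PSMA8, PSMB11 and PSMD5 also meet it by name and were not analysed here. One arm spent 48 hours in panobinostat, an inhibitor of histone deacetylases, at 2 times the IC50 of the line. The other arm spent the same time in vehicle, 1% DMSO, and its libraries carry the word untreated in the label for condition. Each arm held 3 libraries, lettered A to C, from dishes of 1 line. No label says which dish gave which library. The p-values therefore speak of the spread among these 6 samples, and that spread may be technical.

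The proteasome is the protease that destroys proteins tagged with ubiquitin. Its barrel-shaped core particle is built from rings of alpha and beta subunits, of which only PSMB5, PSMB6 and PSMB7 carry active sites in the constitutive form. The regulatory particle that caps the barrel has a base, whose ATPases unfold the substrate and thread it inwards, and a lid, whose subunit PSMD14 strips off the ubiquitin chain. Chaperones such as POMP and the PSMG proteins put the core together, PSME proteins are alternative caps, and NFE2L1 is the transcription factor that raises proteasome genes when the protease falls short. Proteasome inhibitors are cancer drugs that have been given together with panobinostat.

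Libraries held 13417898 to 18186087 counts in all. Of 16 urothelial markers listed, 9 had a row and 1, GATA3, averaged 1 FPKM or more with vehicle. FPKM is a count divided by the total of the library and by a length for the gene. That length is not the span of the gene on the chromosome. UPK1B, TP63 and FOXA1 were at 0 counts in the 3 vehicle libraries. Of 10 adrenergic neuroblast markers, a list chosen with earlier results of these data known, 9 averaged 10 FPKM or more with vehicle. These markers go against a bladder carcinoma, the identity of the cells was not settled here, and the libraries are called by their label alone. The summed neuroblast markers lay at 1390 to 1480 FPKM with panobinostat and 1650 to 1860 FPKM with vehicle, and the summed urothelial markers at 11.0 to 14.7 FPKM with panobinostat and 10.2 to 13.8 FPKM with vehicle. Summed markers of fibroblasts lay at 50.9 to 52.8 FPKM with panobinostat against 4.72 to 5.59 FPKM with vehicle, and those of endothelium at 0.554 to 0.564 FPKM with panobinostat against 0.105 to 0.154 FPKM with vehicle. The fibroblast sum with panobinostat was mostly LUM, which averaged 42.4 FPKM, against 0.654 FPKM with vehicle. With vehicle it was mostly PDGFRB, which averaged 4.19 FPKM, against 5.88 FPKM with panobinostat. COL1A2 and, of endothelium, VWF overlapped between the arms. Of the leukocyte markers 2 had a row, both at low counts, and they went opposite ways. PTPRC had 21, 12 and 12 counts in panobinostat libraries A, B and C and 2, 0 and 3 counts in vehicle libraries A, B and C, and LYZ had 8, 3 and 10 counts with panobinostat and 27, 18 and 27 counts with vehicle. The summed urothelial markers overlapped between the arms, while the neuroblast, fibroblast and endothelial sums did not. The urothelial sum was mostly GATA3, which averaged 9.15 FPKM with panobinostat and 10.6 FPKM with vehicle, with overlap of the arms. Within that list PPARG rose 2.48-fold, and UPK1B, TP63 and FOXA1 had low counts with panobinostat. The part of these markers in the results on proteasome genes was not tested.

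A few promoters belong to the contrasts described further on, and each is shown as the 250 bases before the RefSeq gene start on GRCh38.p14, read 5′ to 3′ on the strand of the gene. PSME1 and PSME2 are shown as partners in 1 cap, of which the first rose and the other did not pass, PSMB5 and PSMC3 as a catalytic subunit and an ATPase that fell, and NFE2L1 as the regulator. Capitals mark CCAAT, the box bound by NF-Y, and TGACNNNGC, the core of the antioxidant response element that NFE2L1 binds with small MAF proteins, on either strand.
PSME1 (chr14:24135944-24136193, plus strand): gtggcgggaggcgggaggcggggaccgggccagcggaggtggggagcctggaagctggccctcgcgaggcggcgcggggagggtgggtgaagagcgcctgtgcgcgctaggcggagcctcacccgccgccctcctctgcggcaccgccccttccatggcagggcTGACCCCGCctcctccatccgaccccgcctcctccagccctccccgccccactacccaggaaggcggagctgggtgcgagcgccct
PSME2 (chr14:24146611-24146860, minus strand): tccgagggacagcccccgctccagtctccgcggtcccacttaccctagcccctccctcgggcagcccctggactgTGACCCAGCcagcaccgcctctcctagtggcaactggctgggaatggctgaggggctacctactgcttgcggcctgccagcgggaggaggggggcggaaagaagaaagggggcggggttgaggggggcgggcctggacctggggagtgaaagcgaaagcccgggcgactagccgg
PSMB5 (chr14:23035221-23035470, minus strand): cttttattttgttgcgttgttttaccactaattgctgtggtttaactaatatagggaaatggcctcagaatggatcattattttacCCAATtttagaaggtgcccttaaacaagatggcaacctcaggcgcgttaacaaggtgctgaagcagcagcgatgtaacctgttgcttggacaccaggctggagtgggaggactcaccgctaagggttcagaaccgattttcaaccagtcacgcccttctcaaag
PSMC3 (chr11:47426440-47426689, minus strand): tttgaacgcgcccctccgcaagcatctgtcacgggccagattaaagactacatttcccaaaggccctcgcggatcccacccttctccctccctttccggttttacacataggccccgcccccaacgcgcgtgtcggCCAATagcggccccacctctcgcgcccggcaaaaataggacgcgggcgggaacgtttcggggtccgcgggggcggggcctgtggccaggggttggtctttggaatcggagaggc
NFE2L1 (chr17:48048109-48048358, plus strand): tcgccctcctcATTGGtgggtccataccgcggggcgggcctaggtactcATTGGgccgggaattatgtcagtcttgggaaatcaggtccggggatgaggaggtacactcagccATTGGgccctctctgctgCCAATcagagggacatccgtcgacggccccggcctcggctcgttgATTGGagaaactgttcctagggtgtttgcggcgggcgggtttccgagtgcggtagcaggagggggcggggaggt

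Of the 45 members, 39 had a sequence in the RefSeq table. TGACNNNGC was present in 9 of these 39 (23.1%), against 3013 of 27305 promoters of the same length (11.0%), and CCAAT in 17 (43.6%), against 33.0%. GGGCGG, the GC box, was present in 26 (66.7%), against 42.3%, and the E box CACGTG in 3 (7.69%), against 6.49%. All were searched on both strands, and no match of one motif overlapped a match of another in the members. No limit to coding or expressed genes was set on the 27305 promoters, and they were not matched to the members by level. TGACNNNGC stood in 6 of 23 members that fell, 2 of 14 that did not pass and 1 of 2 that rose. CCAAT stood in 11 of the 23, 5 of the 14 and 1 of the 2. PSME1 and PSME2 each held 1 TGACNNNGC and 3 GC boxes, and NFE2L1 held 5 CCAAT boxes and no TGACNNNGC in this window. In GENCODE the PSME2 gene begins further upstream, at position 24147570, so its window depends on which start is used. The same holds for other members counted here, among them PSMA1, PSMA6, PSME3 and PSMG4. A match of letters is a description and not a site.

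With panobinostat 26 of the 45 members fell and 2 rose, in a quasi-likelihood test by edgeR whose p-values were adjusted by Benjamini-Hochberg over all 16084 genes tested, with 0.05 as the threshold. Over all genes tested 31.5% fell and 33.7% rose. The changes were small: PSMB6 moved most among the falls, to 0.509 times the vehicle level, PSME1 rose 1.97-fold, and 0 of the 45 changed 2-fold or more, against 22.1% of all genes. The median log2 fold change of the members was -0.27, against 0.01 over all genes. In CPM, a count scaled to the library by TMM, every panobinostat library lay below every vehicle library for 27 members and above for 2, against 33.4% and 35.5% of all genes. These values are shares of a library's RNA, so fewer cells of a type and less RNA per cell cannot be told apart.

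Genes of high level fell more often, so the members were set beside genes of like level. Of the 25 members with a mean of 100 CPM or more, 15 fell (60.0%) and 1 rose (4.0%), against 48.1% and 22.7% of all 2472 genes at that level. Of the 18 members between 10 and 100 CPM, 11 fell (61.1%) and 1 rose (5.56%), against 40.5% and 28.5% of 7458 genes. The median log2 fold change was -0.27 for the members and -0.17 for all genes at 100 CPM or more, and -0.31 and -0.10 between 10 and 100 CPM. PSMB10 and PSMC1, the members under 10 CPM, did not pass, where 14.0% of all genes fell and 44.4% rose. The counts by role that follow rest on 1 to 8 genes each, and are to be read against these shares.

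**Figure D1:**
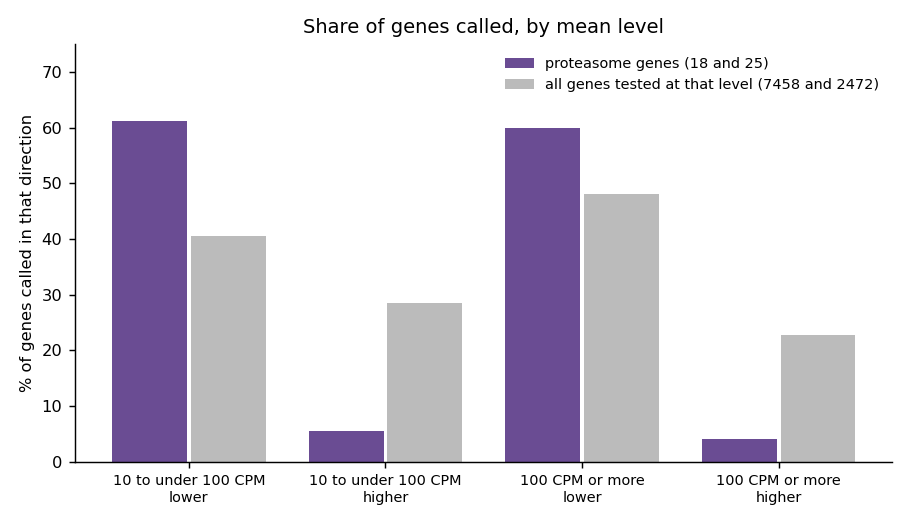
Bars give the percentage of genes that fell or rose with panobinostat (y axis, from 0) for proteasome genes and for all genes tested, at a mean of 10 to under 100 CPM and at 100 CPM or more. Proteasome genes fell in 61.1% and 60.0% of cases, against 40.5% and 48.1% of all genes, and rose in 5.56% and 4.0%, against 28.5% and 22.7%.

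The scaling bears on how many members pass. Scaling by library size alone moves the median of all genes up by 0.11 on the log2 scale, and upper quartile scaling moves it up by 0.14. With library size alone 20 members fell and 6 rose, and with upper quartile scaling 18 fell and 7 rose, while genes that rose made up 61.0% and 63.2% of all calls, against 51.7% with TMM. Of the 26 falls, 17 passed in each of 17 other settings run, and the rise of PSME1 did so too. The 17 were those of PSMA2, PSMA3, PSMB2, PSMB3, PSMB5, PSMB6, PSMC3, PSMC4, PSMC5, PSMC6, PSMD1, PSMD8, PSMD11, PSMD12, PSME3, PSMF1 and PSMG2.

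**Figure D2:**
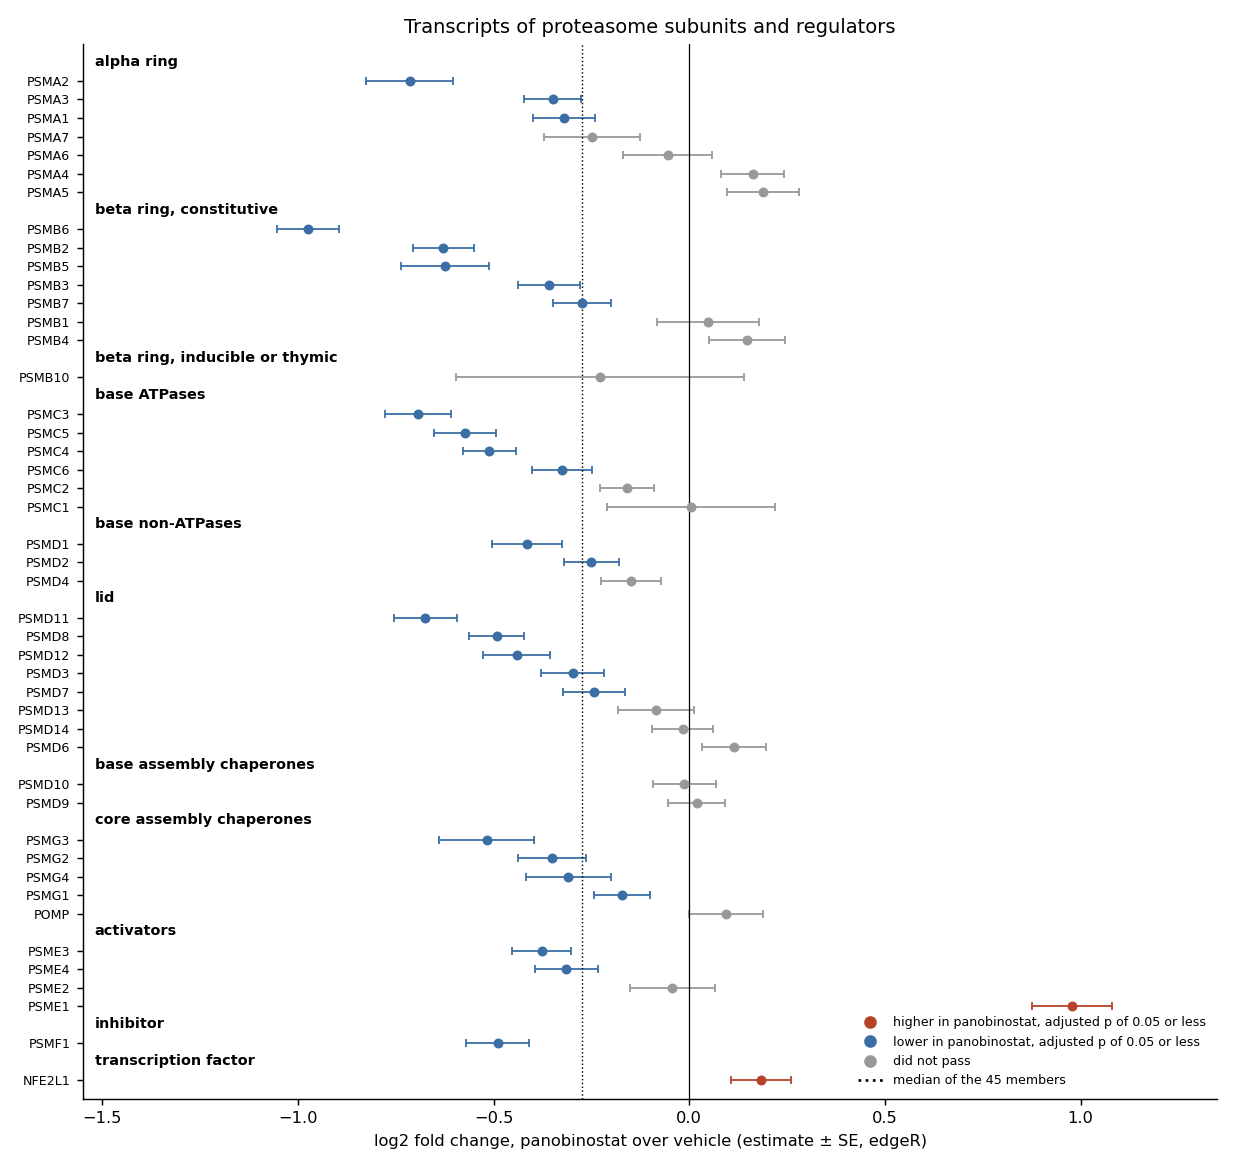
Points give the log2 fold change of panobinostat over vehicle for each of the 45 members (x axis, estimate ± SE from edgeR), grouped by role, with the members' median of -0.27 as a dotted line. Most points lie left of 0, from PSMB6 at -0.97 upwards, and PSME1 stands apart at 0.98.

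All 3 active-site subunits of the core fell. PSMB6 (ENSG00000142507, GRCh38 chromosome 17, 4796144 to 4798503), the caspase-like site, stood at 80.4, 90.8 and 97.2 CPM in panobinostat libraries A, B and C, against 169, 175 and 184 CPM in vehicle libraries A, B and C. The arms were far apart, and the fold change was -0.97 ± 0.08 on the log2 scale (estimate ± SE, adjusted p = 7.97e-08). PSMB5 (chromosome 14, 23016543 to 23035230), the chymotrypsin-like site and the target of clinical proteasome inhibitors, stood at 108, 137 and 148 CPM with panobinostat and 175, 207 and 227 CPM with vehicle. It fell by 0.62 ± 0.11 (adjusted p = 0.000178), and in both arms library A was the lowest and C the highest. PSMB7 (chromosome 9, 124353466 to 124415444), the trypsin-like site, stood at 168, 179 and 196 CPM with panobinostat and 215, 216 and 226 CPM with vehicle. It fell by 0.27 ± 0.07 (adjusted p = 0.00455) without overlap of the arms, but the call was lost with scaling by library size, with upper quartile scaling and with limma on FPKM (adjusted p = 0.0583, 0.116 and 0.064 to 0.0742).

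Measured per length, these 3 transcripts stood close together with vehicle and apart with panobinostat. PSMB5, PSMB6 and PSMB7 averaged 77.2 ± 11.6, 64.1 ± 5.59 and 105 ± 7.05 FPKM with panobinostat and 110.3 ± 13.5, 117 ± 4.44 and 118 ± 2.84 FPKM with vehicle (mean ± SD, n = 3). The ratio of PSMB6 to PSMB7 was 0.589, 0.628 and 0.613 in panobinostat libraries A, B and C and 0.971, 0.998 and 1.01 in vehicle libraries A, B and C. For PSMB5 to PSMB7 it was 0.652, 0.779 and 0.768 with panobinostat and 0.824, 0.970 and 1.02 with vehicle. Both ratios were lower in every panobinostat library than in any vehicle library. The pairs were picked after their values were seen, so these ratios are a description without a test.

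PSMB10, the interferon-inducible counterpart of PSMB7, was nearly absent. It had 13, 8 and 15 counts in panobinostat libraries A, B and C and 15, 16 and 10 counts in vehicle libraries A, B and C, against a floor of 3 counts, and its fold change was -0.23 ± 0.37 (adjusted p = 0.603). Its FPKM was 0.00531, 0.00256 and 0.00396 times that of PSMB7 in panobinostat libraries A, B and C and 0.00486, 0.00417 and 0.00247 times in vehicle libraries A, B and C. With so few counts, its SE was wider than that of any other member.

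Of the 4 constitutive beta subunits without an active site, 2 fell and 0 rose. PSMB2 (chromosome 1, 35599544 to 35641844) stood at 126, 118 and 115 CPM with panobinostat and 202, 171 and 183 CPM with vehicle, and fell by 0.63 ± 0.08 in log2 units (adjusted p = 5.3e-06). PSMB3 fell by 0.36 ± 0.08 (adjusted p = 0.00107). PSMB1 and PSMB4 did not pass, at 0.05 ± 0.13 and 0.15 ± 0.10. For PSMB4, panobinostat library A stood at 263 CPM, while B and C stood at 344 and 355 CPM and the vehicle libraries at 295, 281 and 293 CPM. Without that library PSMB4 rose (0.27, adjusted p = 0.00248), and it also rose with library size alone and upper quartile scaling (adjusted p = 0.0273 and 0.0178).

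Of 7 alpha subunits, which form the outer rings and gate the barrel, 3 fell and 0 rose, a share of falls close to that of all genes at 10 to under 100 CPM (40.5%) and at 100 CPM or more (48.1%). PSMA2 (chromosome 7, 42916857 to 42932223) stood at 34.6, 31.6 and 25.8 CPM with panobinostat and 54.0, 52.4 and 44.3 CPM with vehicle, and fell by 0.71 ± 0.11 in log2 units (adjusted p = 4.73e-05). PSMA3 stood at 71.7, 68.1 and 76.8 CPM with panobinostat and 91.8, 92.7 and 91.6 CPM with vehicle, and fell by 0.35 ± 0.07 (adjusted p = 0.000644). The arms did not overlap for either gene. PSMA1 fell by 0.32 ± 0.08 (adjusted p = 0.00258), but did not pass with upper quartile scaling (adjusted p = 0.0575). PSMA4, PSMA5, PSMA6 and PSMA7 did not pass, at 0.16 ± 0.08, 0.19 ± 0.09, -0.05 ± 0.11 and -0.25 ± 0.12. PSMA4 and PSMA5 rose with library size alone (adjusted p = 0.00611 and 0.00933) and upper quartile scaling (adjusted p = 0.00414 and 0.00563). They rose too by limma on filtered FPKM (adjusted p = 0.0174 to 0.0179 and 0.0407 to 0.0418). PSMA4 also rose with limma without a filter (adjusted p = 0.0219), and PSMA5 with a filter at a mean of 1 CPM (adjusted p = 0.0472). Without panobinostat library A, PSMA5 rose (adjusted p = 0.00182), and without panobinostat library C, PSMA7 fell (adjusted p = 0.014), as it did with no filter (adjusted p = 0.0422).

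Measured per length, subunits that stand in equal number in the core differed widely in transcript level. This spread depends on the length that each count is divided by. In CPM with vehicle PSMB2 and PSMB3 lay closer together, at 185 and 225 CPM, while PSMA6 and PSMA7 stood far apart, at 12.6 and 289 CPM. The part of length in the spread was not tested. Within the alpha ring the arm means ran from 1.93 ± 0.0803 FPKM for PSMA6 to 144 ± 30.9 FPKM for PSMA7 with panobinostat, and from 1.86 ± 0.136 to 158 ± 8.97 FPKM for the same genes with vehicle. Among the constitutive beta subunits they ran from 25.7 ± 1.42 FPKM for PSMB2 to 154 ± 14.6 FPKM for PSMB3 with panobinostat, and from 36.8 ± 3.40 to 183 ± 3.86 FPKM for the same genes with vehicle. In the regulatory particle PSMC1 was lowest, at 0.869 ± 0.240 FPKM with panobinostat and 0.815 ± 0.209 FPKM with vehicle, and PSMC3 was highest by FPKM in each of the 6 libraries. GENCODE lists 13 pseudogenes named for PSMC1 and 4 for PSMA6, and 12 of the 45 members have at least 1. How reads with several matching places were counted is not stated in the command line, so the levels of these 12 members are uncertain. PSMC1 had 505 counts over the 6 libraries and the pseudogenes of it with a row had 447. PSMA1, PSMA2, PSMA3, PSMA6, PSMB10, PSMD9 and PSMF1 overlap another gene on their strand in GENCODE, and their levels are uncertain too.

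**Figure D3:**
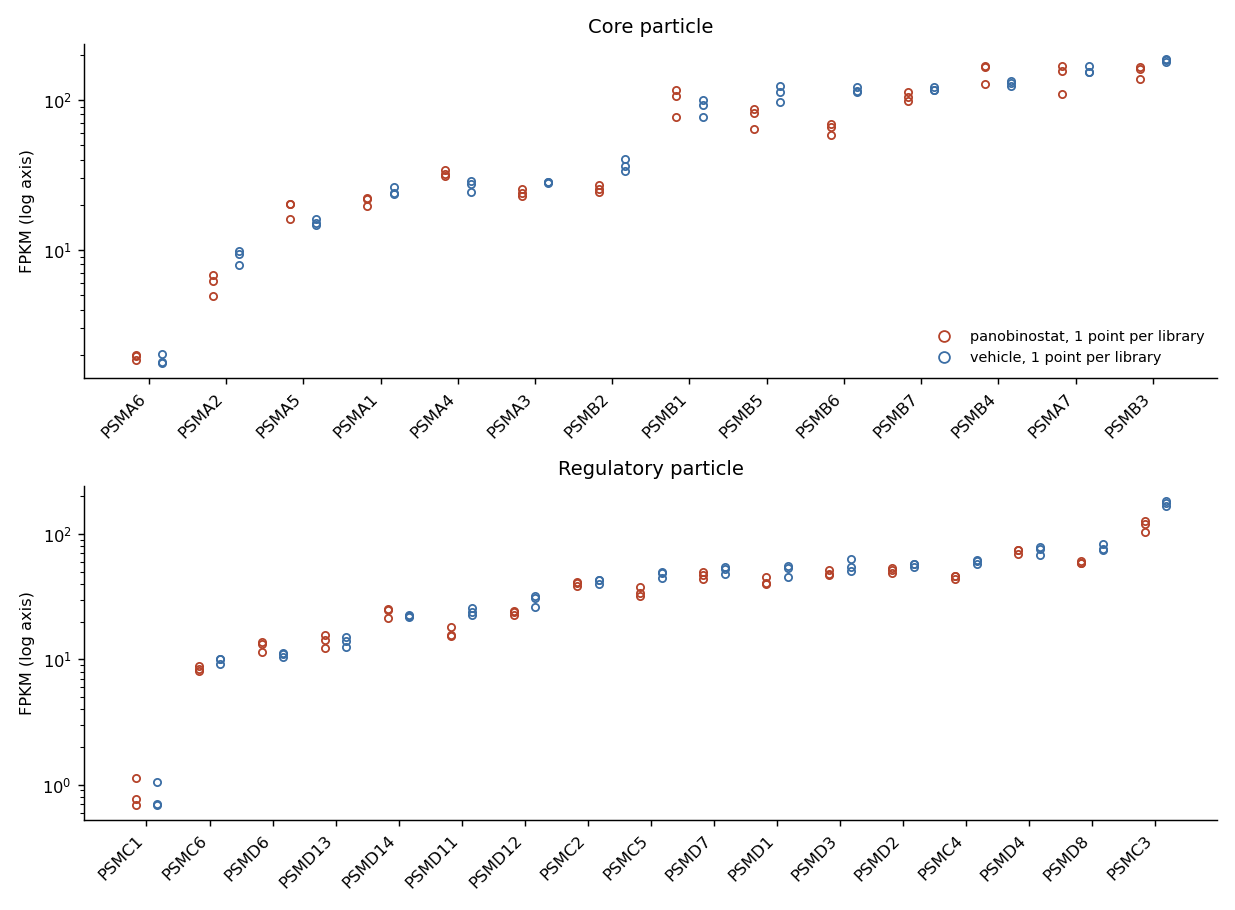
Points give FPKM (log axis) in each panobinostat and vehicle library for the 14 core subunits (upper panel) and 17 base and lid subunits (lower panel), in order of the vehicle mean. PSMA6 and PSMC1 lie far below the other subunits, and PSMB3 and PSMC3 stand at the top with vehicle.

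In the base, 4 of the 6 ATPases fell and 0 rose. PSMC3 (chromosome 11, 47418769 to 47426473) stood at 228, 265 and 281 CPM in panobinostat libraries A, B and C, against 392, 425 and 434 CPM in vehicle libraries A, B and C, and fell by 0.69 ± 0.08 in log2 units (adjusted p = 4.4e-06). PSMC5 (chromosome 17, 63827152 to 63832026) stood at 147, 138 and 164 CPM with panobinostat and 226, 209.9 and 234 CPM with vehicle, and fell by 0.57 ± 0.08 (adjusted p = 1.67e-05). The lowest vehicle value lay well above the highest panobinostat value for both. PSMC4 and PSMC6 fell by 0.51 ± 0.07 and 0.33 ± 0.08. PSMC2 did not pass (-0.16 ± 0.07, adjusted p = 0.0567) although its arms did not overlap, and it passed without vehicle library B, with DESeq2 and with no filter (adjusted p = 0.0494, 0.0486 and 0.0412). PSMC1 stood at 0.0033 ± 0.21.

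Among the other base subunits, the scaffold subunits fell. PSMD1 stood at 197, 202 and 229 CPM with panobinostat and 245, 290.1 and 303 CPM with vehicle, and fell by 0.41 ± 0.09 in log2 units (adjusted p = 0.000829). PSMD2 stood at 256, 269 and 286 CPM with panobinostat and 323, 313 and 329 CPM with vehicle, and fell by 0.25 ± 0.07 (adjusted p = 0.00609). The arms of PSMD2 did not overlap, but its call was lost with scaling by library size, with upper quartile scaling and with limma on FPKM (adjusted p = 0.0889, 0.172 and 0.0669 to 0.0733). PSMD4, a ubiquitin receptor, did not pass (-0.15 ± 0.08), and it fell without vehicle library A (-0.22, adjusted p = 0.013).

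In the lid, 5 of 8 subunits fell and 0 rose. PSMD11 (chromosome 17, 32444261 to 32483318), a lid scaffold known to promote assembly of the whole complex, stood at 124, 106 and 109 CPM with panobinostat and 191, 169 and 181 CPM with vehicle. It fell by 0.67 ± 0.08 in log2 units (adjusted p = 3.28e-06). PSMD8 stood at 176, 182 and 177 CPM with panobinostat and 266, 247 and 240.4 CPM with vehicle, and fell by 0.49 ± 0.07 (adjusted p = 2.04e-05). PSMD12 fell by 0.44 ± 0.09 (adjusted p = 0.000365). PSMD3 and PSMD7 fell by 0.30 ± 0.08 and 0.24 ± 0.08, but neither passed with library size alone (adjusted p = 0.0607 and 0.143), upper quartile scaling (0.1 and 0.254) or limma on FPKM (0.107 to 0.126 and 0.161 to 0.172). Nor did PSMD7 pass without vehicle library B or C (adjusted p = 0.061 and 0.0501).

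PSMD14, the deubiquitinase of the lid, did not pass. It stood at 158, 182 and 188 CPM with panobinostat and 171, 183 and 179 CPM with vehicle, and the arms overlapped (-0.02 ± 0.08, adjusted p = 0.859). PSMD13 and PSMD6 did not pass either, at -0.08 ± 0.10 and 0.11 ± 0.08. PSMD6 rose without panobinostat library A (adjusted p = 0.0326), with library size alone and with upper quartile scaling (adjusted p = 0.0213 and 0.0133). Its adjusted p by limma on log2(FPKM + 1) with a filter was 0.0499. The FPKM ratio of PSMD11 to PSMD14, partners within 1 complex picked after their values were seen, was 0.841, 0.622 and 0.622 in panobinostat libraries A, B and C and 1.19, 0.988 and 1.08 in vehicle libraries A, B and C.

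Taking the particles as wholes, 8 of 14 core subunits and 11 of 17 base and lid subunits fell, and 0 of these 31 rose. Among genes of every kind, 40.5% fell and 28.5% rose at 10 to under 100 CPM, and 48.1% and 22.7% at 100 CPM or more. Only PSMC1 lay under 10 CPM, where 14.0% fell and 44.4% rose. How far the particles differ from these shares was not tested. The core, and the base and lid, had median log2 fold changes of -0.30 and -0.30. The CPM of the 14 core transcripts summed to 1728, 2049.9 and 2172 in panobinostat libraries A, B and C and 2239.8, 2310.3 and 2419 in vehicle libraries A, B and C. The 17 transcripts of the base and lid summed to 2403, 2542 and 2656 CPM with panobinostat and 3173, 3239 and 3322 CPM with vehicle. On this TMM scale the highest panobinostat sum lay below the lowest vehicle sum for both particles. The TMM factors were 1.028 for panobinostat library C and 0.9714 for vehicle library A. With the factors undone, the core sum of the former lies above that of the latter, so the gap of the core rests on the scaling. The arms of the base and lid stay apart. The ratio of the arm means, also on the TMM scale, was 0.854 for the core and 0.781 for the base and lid. The difference between the particles was not tested.

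The letter A goes with low values of these genes, and also with the smallest total of counts in each arm. Those totals were 13417898 counts for panobinostat library A and 14287080 counts for vehicle library A. The part of depth was not tested. Panobinostat library A was the lowest of its arm for 34 of the 45 members (75.6%), against 40.0% of all genes tested, and vehicle library A was the lowest of its arm for 25 (55.6%), against 38.9%. Library A was lowest in both arms for 23 members (51.1%), against 16.2% of all genes. Without panobinostat library A, 24 members fell and 5 rose, and without vehicle library A, 27 fell and 2 rose.

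**Figure D4:**
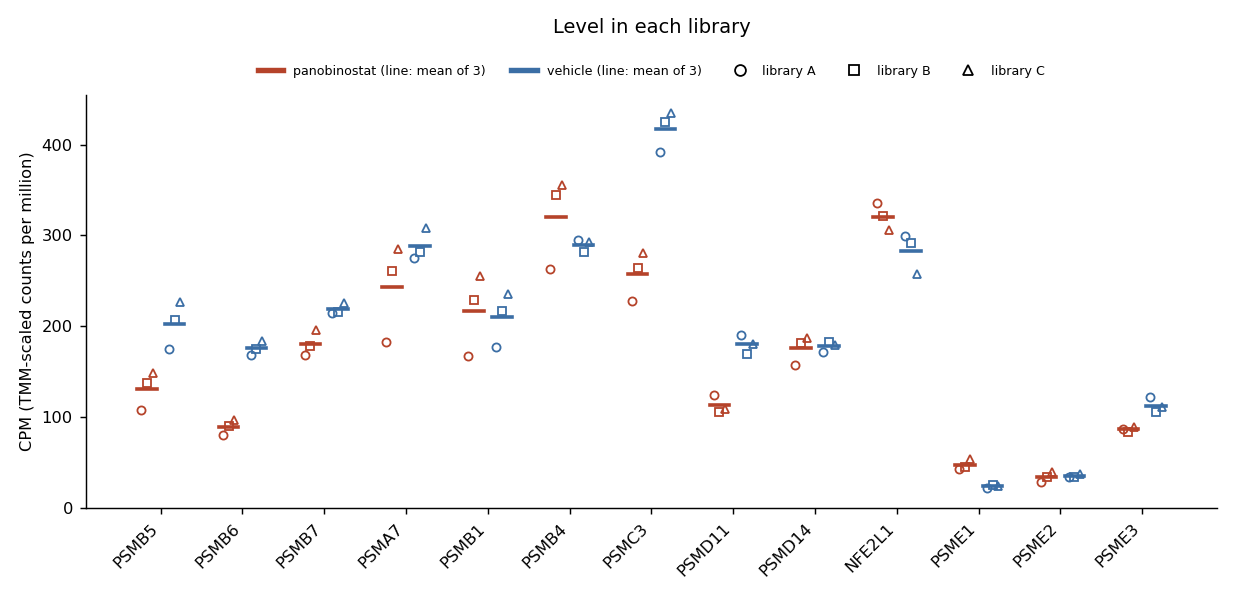
Points give CPM (y axis, from 0) in libraries A, B and C of each arm for selected members, with a line at the mean of 3. PSMB6 and PSMC3 show wide gaps between the arms, PSME1 lies above in panobinostat, and in PSMA7, PSMB1 and PSMB4 the panobinostat library A lies below libraries B and C.

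Of the 4 genes of alternative caps, 2 fell and 1 rose. PSME1 and PSME2 are neighbours on chromosome 14 whose products form 1 mixed ring, known as an interferon-inducible activator of peptide release. PSME1 (ENSG00000092010, 24136158 to 24138967) stood at 43.2, 44.8 and 53.6 CPM in panobinostat libraries A, B and C, against 21.7, 25.8 and 24.3 CPM in vehicle libraries A, B and C. It rose by 0.98 ± 0.10 on the log2 scale, or 1.97-fold (adjusted p = 9.3e-07), with every panobinostat library above every vehicle library. PSME2 (24143362 to 24147570) stood at 28.4, 34.4 and 39.6 CPM with panobinostat and 33.8, 34.5 and 37.6 CPM with vehicle. Its arms overlapped and it did not pass (-0.04 ± 0.11, adjusted p = 0.745). The level of PSME2 is uncertain, since GENCODE names 2 pseudogenes for it.

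As a description without a test, the ratio of PSME1 to PSME2 in FPKM was 3.06, 2.62 and 2.72 in panobinostat libraries A, B and C and 1.29, 1.51 and 1.30 in vehicle libraries A, B and C. PSME3 (chromosome 17, 42824385 to 42843758), which forms a nuclear activator ring of its own, stood at 86.6, 84.2 and 89.8 CPM with panobinostat and 123, 105 and 111 CPM with vehicle, and fell by 0.38 ± 0.08 (adjusted p = 0.0005). The FPKM ratio of PSME3 to PSME1 was 0.693, 0.650 and 0.579 with panobinostat and 1.95, 1.41 and 1.57 with vehicle. Measured per length, PSME3 thus stood above PSME1 in every vehicle library and below it in every panobinostat library. In CPM, which is not divided by length, PSME3 stood above PSME1 in each of the 6 libraries. PSME4, a single-chain activator, stood at 86.7, 71.4 and 79.2 CPM with panobinostat and 96.9, 97.4 and 100.4 CPM with vehicle, and fell by 0.31 ± 0.08 (adjusted p = 0.00291). Its fall did not pass with upper quartile scaling or limma on FPKM (adjusted p = 0.063 and 0.0649 to 0.0799). PSMF1, named an inhibitor of the core, stood at 52.7, 48.3 and 57.3 CPM with panobinostat and 75.5, 73.6 and 73.4 CPM with vehicle, and fell by 0.49 ± 0.08 (adjusted p = 7.54e-05).

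**Figure D5:**
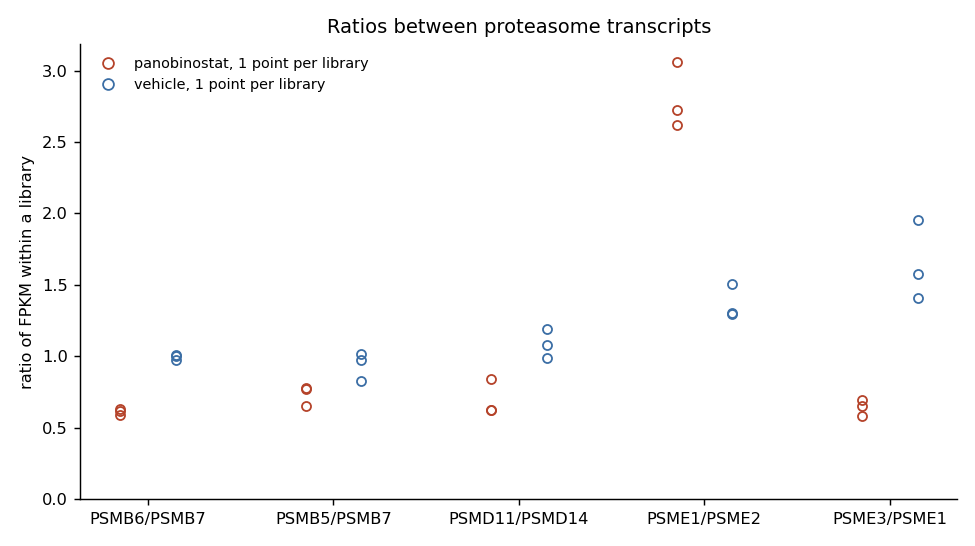
Points give the ratio of 2 FPKM values within each library (y axis, from 0) for panobinostat and vehicle libraries. The ratio of PSMB6 to PSMB7 is 0.589 to 0.628 with panobinostat and 0.971 to 1.01 with vehicle, and that of PSME1 to PSME2 is 2.62 to 3.06 with panobinostat and 1.29 to 1.51 with vehicle.

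Of the 5 chaperones of core assembly, 4 fell and 0 rose. PSMG3 stood at 23.6, 30.8 and 33.3 CPM with panobinostat and 36.4, 46.2 and 43.2 CPM with vehicle, and fell by 0.52 ± 0.12 in log2 units (adjusted p = 0.00166), though with limma on log2(FPKM + 1) without a filter it did not pass (adjusted p = 0.0504). PSMG2, the partner of PSMG1, stood at 27.0, 29.2 and 28.6 CPM with panobinostat and 33.5, 37.5 and 37.0 CPM with vehicle, and fell by 0.35 ± 0.09 (adjusted p = 0.00234). PSMG4 fell by 0.31 ± 0.11 (adjusted p = 0.0215), and did not pass without panobinostat library A or vehicle library C (adjusted p = 0.0679 and 0.0776), with scaling by library size or upper quartile (0.124 and 0.184), or with limma on FPKM (0.224 to 0.275). PSMG1 fell by 0.17 ± 0.07 with an adjusted p of 0.0474, and kept its call in 4 of 17 other settings. It was lost when panobinostat library A, B or C or vehicle library B or C was left out (adjusted p = 0.0825, 0.075, 0.134, 0.12 and 0.146), and also with RLE size factors, library size alone and upper quartile scaling (adjusted p = 0.0514, 0.48 and 0.702).

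POMP, the chaperone that brings beta subunits onto the alpha ring, stood at 71.9, 86.4 and 94.7 CPM with panobinostat and 73.2, 82.7 and 81.4 CPM with vehicle. The arms overlapped and it did not pass (0.09 ± 0.10, adjusted p = 0.403), but it rose without panobinostat library A (adjusted p = 0.0433) and with upper quartile scaling (adjusted p = 0.043). Among chaperones of the base, PSMD9 and PSMD10 did not pass, at 0.02 ± 0.07 and -0.01 ± 0.08. PSMD10, also called gankyrin, stood between 33.5 and 35.6 CPM in all 6 libraries.

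NFE2L1 (ENSG00000082641, chromosome 17, 48048329 to 48061487) stood at 335, 321 and 306 CPM in panobinostat libraries A, B and C, against 299, 291 and 257 CPM in vehicle libraries A, B and C. Every panobinostat library lay above every vehicle library, and the rise of 0.18 ± 0.08 on the log2 scale sat at the threshold (adjusted p = 0.0491). It did not pass without panobinostat library A or B or vehicle library B or C (adjusted p = 0.103, 0.118, 0.0706 and 0.294), with DESeq2 (0.093) or with no filter (0.116). Its protein is held inactive in the endoplasmic reticulum and released by extraction, deglycosylation and cleavage, so the transcript does not measure the active factor.

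Of 14 genes of NFE2L1 processing and partners, 7 rose and 4 fell, against 33.7% and 31.5% of all genes, with a median log2 fold change of 0.19. Among genes of every kind 28.5% rose and 40.5% fell at 10 to under 100 CPM, and 22.7% and 48.1% at 100 CPM or more. MAFF and MAFK lie under 10 CPM, where 44.4% of all genes rose. Genes of the small MAF proteins, which pair with NFE2L1 and its relatives on DNA, rose: MAFK averaged 4.37 ± 0.835 CPM with panobinostat and 0.489 ± 0.186 CPM with vehicle (mean ± SD, n = 3), MAFF rose by 1.76 ± 0.19 and MAFG by 0.85 ± 0.08 on the log2 scale. MAFK had 72, 76 and 65 counts in panobinostat libraries A, B and C and 5, 12 and 7 counts in vehicle libraries A, B and C, so its log2 fold change is imprecise (3.11 ± 0.30). The related factors NFE2L2 and NFE2L3 rose by 0.46 ± 0.08 and 0.59 ± 0.09. SEL1L, of the complex that draws proteins out of the endoplasmic reticulum, rose 1.92-fold. NGLY1, the deglycosylase, rose by 0.31 ± 0.09 (adjusted p = 0.0054), and DDI2, the protease that cleaves NFE2L1, did not pass (-0.13 ± 0.10). VCP, the ATPase of extraction, fell to 447 ± 53.7 CPM with panobinostat, against 585 ± 38.8 CPM with vehicle (adjusted p = 0.00152). HCFC1 and BTRC fell by 0.71 ± 0.12 and 0.62 ± 0.09.

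Of 12 other proteins bound to the proteasome, 5 fell and 1 rose, with a median log2 fold change of -0.15. The share that fell is close to that of all genes at their levels, 40.5% at 10 to under 100 CPM and 48.1% at 100 CPM or more. ECPAS, a scaffold of the whole complex, averaged 129.7 ± 3.72 CPM with panobinostat and 265 ± 6.56 CPM with vehicle, and fell by 1.03 ± 0.07 in log2 units (adjusted p = 7.84e-09). ZFAND2A and PAAF1 fell by 0.80 ± 0.11 and 0.47 ± 0.10. UCHL5, a deubiquitinase, rose by 0.28 ± 0.09 (adjusted p = 0.0153) and did not pass without panobinostat library A or vehicle library A (adjusted p = 0.0665 and 0.0609). ADRM1, the ubiquitin receptor that holds UCHL5, did not pass (-0.12 ± 0.07).

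Of 9 cofactors of VCP, 5 fell and 1 rose, with a median log2 fold change of -0.25, where 40.5% and 48.1% of all genes fell at those levels and 28.5% and 22.7% rose. UBXN4, NSFL1C and NPLOC4 fell by 0.62 ± 0.07, 0.55 ± 0.09 and 0.42 ± 0.07, and UBXN1 rose by 0.35 ± 0.08. Of 5 shuttle receptors, which carry ubiquitin-tagged proteins to the proteasome, 4 fell and 0 rose, a count of too few genes to read against those shares. UBQLN2 averaged 18.6 ± 1.95 CPM with panobinostat and 38.3 ± 7.32 CPM with vehicle, UBQLN4 fell by 0.99 ± 0.10, and RAD23B, the most abundant by CPM, fell by 0.30 ± 0.07. RPS27A, which encodes ubiquitin fused to a ribosomal protein, stood at 181, 274 and 276 CPM with panobinostat and 113, 201 and 188 CPM with vehicle. The arms overlapped, and it rose by 0.54 ± 0.18 in log2 units (adjusted p = 0.0154). It did not pass without panobinostat library B or C or vehicle library A (adjusted p = 0.0605, 0.0519 and 0.0534) or with DESeq2 (0.146) or limma without a filter (0.0706).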

How the data were processed

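Total RNA of 6 libraries was sequenced, 3 after panobinostat and 3 after vehicle, grouped by their titles. The authors deposited counts per gene, which the file headers credit to featureCounts 1.5.0-p3 run on Ensembl release 84 genes, by strand (option 2) and largest overlap. The submitters' processing notes name Novoalign 2.8, featureCounts 1.5.1 and hg38. The deposited FPKM values are the authors' own, and no source used here names the tool. FPKM follows the library total, while CPM here follows TMM, so folds in the 2 units differ. The median log2 fold change of the members was -0.27 with TMM and -0.16 with limma on log2(FPKM + 1). The members and lists were chosen with earlier results of these data known.

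GENCODE release 29 gave symbols, gene types and positions on GRCh38 for 22459 of the 22718 identifiers. The filterByExpr step asked for a count of 10 and a total of 15, TMM set the scale, and the test was that of edgeR 4.0.16 (quasi-likelihood, panobinostat minus vehicle) in R 4.3.3, with calls at 0.05 after Benjamini-Hochberg adjustment. The SE is the log2 fold change divided by the square root of F. The steps were tested on simulated data. Between libraries, 3 counts equal 0.161 to 0.216 CPM, a floor that covers counting error only. Alternatives were DESeq2 1.42.0, 3 other scalings, 2 other filters, a threshold of 0.01, a block by letter, each library left out, and limma 3.58.1 on log2(FPKM + 1), with and without a filter at a mean of 1 FPKM, and on log2(FPKM + 0.1). Every member is named. Values by library are given for NFE2L1, POMP, the active-site subunits, PSMB10, PSMD14, the PSME genes, PSMF1, and the 2 largest rises and falls of each role past the threshold at 1 CPM or more. Other pathway genes are up to 3 rises and 3 falls a list by the same rule, with NFE2L2, DDI2, NGLY1, ADRM1 and VCP. One gene that this rule names is not reported here. MAFG and NFE2L3, single library values of PSMB4, and the ratios were chosen after values were seen. Promoter sequences are RefSeq's, GRCh38.p14.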

Additional observations from a re-analysis of the deposited data

How the results depend on the processing

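Of the 45 members 26 fell and 2 rose in the comparison as reported. The number that fell ran from 18 with upper quartile scaling or limma on log2(FPKM + 1) without a filter to 28 with no filter, and from 23 to 27 when each library was left out. The number that rose, small to begin with, was 6 with library size alone and 7 with upper quartile scaling. It was 1 with no filter, with DESeq2 and at an adjusted p of 0.01, 5 and 4 with limma on log2(FPKM + 1) and log2(FPKM + 0.1) with a filter, and 1 to 5 when each library was left out. Library size alone and upper quartile scaling move every gene up, and FPKM, like library size alone, follows the library total. The cause of the differing counts was not tested. Counts over all genes stayed within 1.5 times in each of these settings, though rises made up 64.7% of calls with limma without a filter, against 51.7% as reported. Over members and settings, 57 comparisons lost a call, 27 gained one, 43 turned sign with no call in either, and 0 turned the sign of a call.

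The letters are not said to mark a shared batch, and the deviations of same-lettered libraries correlated at 0.0815, -0.0213 and 0.104 for A, B and C, so they were not taken as pairs. With the replicate block 27 members fell and 2 rose, PSMA7 being the fall gained (adjusted p = 0.0229). PSMB10 is limited by depth, with 8 to 16 counts a library. PSMC1 had 57 to 114 counts a library, and its level is uncertain because of the pseudogenes named for it.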
